A study of Mus musculus with 20 samples.

Results

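Cyclins and cyclin-dependent kinases were followed in mouse testis after a short heat shock. Members were the genes whose symbol is Ccn with letters and a number, or Cdk with a number, without Ccng1. This rule gave 35 genes of the 18193 with a probe set of their own on the chip. Ccnb1 and Cdk15 have no probe set annotated to them alone and were not analysed here. By role, 9 members act in G1 and S phase, 5 in M phase and meiosis, 10 in transcription and RNA processing and 9 belong to atypical branches. The other 2, Ccndbp1 and Ccnb1ip1, are named for a cyclin that they bind and are not cyclins.

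RNA of whole testes came from mice of 2 inbred lines, C57BL/6 and AKR/N, aged 8 weeks. Each line had controls without heat and samples collected 8, 10, 12 and 24 h after exposure to 43 °C for 15 min. Each of the 10 groups had 2 arrays, 20 in all. The labels give the controls no sampling time, so heat and the time of sampling cannot be told apart, and they leave unsaid if the arrays of a group are of different animals. The p-values therefore rest on the spread between arrays of a group, and that spread may be technical.

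Cyclins are regulatory subunits that rise and fall through the cell cycle and switch on cyclin-dependent kinases. D-type cyclins with Cdk4 and Cdk6, then E-type cyclins with Cdk2, carry cells through G1 into S phase, and A- and B-type cyclins with Cdk1 carry them into M phase. Germ cells of the testis use both mitotic and meiotic forms, such as cyclin A1, which male meiosis requires. Other cyclins and kinases with the same fold act on RNA polymerase II, on splicing or on the cytoskeleton.

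Every array had the same mean of 125 once the top and bottom 2% of probe sets were set aside, and the median signal ranged from 24.9 to 34.9. Testis markers were bright on every array, with 8850 to 11500 for Prm1 and 1430 to 2710 for Sycp3. The epididymal marker Lcn5 lay between 0.81 and 19.3, where a signal of 17.5 was the limit used for dim genes. The ratio of 3' to 5' actin probe sets ranged from 1.87 to 3.57. The highest ratio and the highest median signal were both on C57BL/6 12 h replicate 2, against 2.52 and 27.2 on the other array of its group. The correlation between these 2 arrays, 0.97, was the lowest of any group. Values at 12 h in C57BL/6, among them those of Ccnt1, Cdk14 and Ccne1, rest in part on this replicate. Whether it differed in quality was not tested. AKR/N control replicate 1 had the next highest ratio, 2.92, against 2.39 on the other control, and enters every AKR/N change against control. Groups differed as well, with 2.84 and 2.58 at 24 h in C57BL/6 and 1.91 and 1.93 at 8 h in AKR/N. The part of this ratio in the changes was not tested.

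The promoters of 5 members are shown because the largest changes in M phase genes and the earliest change in AKR/N fell on them. Each is the RefSeq sequence of assembly GRCm38.p6, from 250 bases before to 50 bases after the annotated start, written 5′ to 3′ on the strand of the gene. Capitals mark matches on either strand to CCAAT, the box bound by NF-Y, to TTTGAA, a form of the cell cycle homology region that binds repressor complexes in genes of late cell cycle phases, and to TGACGTCA, the cAMP response element. The windows are chr9:70421505-70421804 for Ccnb2, chr10:69352863-69353162 for Cdk1, chr3:55055006-55055305 for Ccna1, chrX:7041570-7041869 for Ccnb3 and chr3:65958200-65958499 for Ccnl1, all on the minus strand.
Ccnb2: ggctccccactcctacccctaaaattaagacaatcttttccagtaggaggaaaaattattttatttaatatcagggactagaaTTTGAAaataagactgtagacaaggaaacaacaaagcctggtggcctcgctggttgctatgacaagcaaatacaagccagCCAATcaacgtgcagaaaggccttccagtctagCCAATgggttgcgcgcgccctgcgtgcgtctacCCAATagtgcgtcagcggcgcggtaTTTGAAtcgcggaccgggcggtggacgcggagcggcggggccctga
Cdk1: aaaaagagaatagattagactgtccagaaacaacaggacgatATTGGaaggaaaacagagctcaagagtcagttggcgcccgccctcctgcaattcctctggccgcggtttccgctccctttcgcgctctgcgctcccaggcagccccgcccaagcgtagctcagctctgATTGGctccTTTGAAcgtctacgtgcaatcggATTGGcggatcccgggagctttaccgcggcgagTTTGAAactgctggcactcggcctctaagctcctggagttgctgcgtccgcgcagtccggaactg
Ccna1: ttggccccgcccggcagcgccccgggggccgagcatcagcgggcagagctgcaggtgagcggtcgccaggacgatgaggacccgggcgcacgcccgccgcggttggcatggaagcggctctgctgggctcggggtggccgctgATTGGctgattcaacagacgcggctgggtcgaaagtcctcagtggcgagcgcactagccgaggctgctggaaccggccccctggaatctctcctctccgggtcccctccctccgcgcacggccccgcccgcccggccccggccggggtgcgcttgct
Ccnb3: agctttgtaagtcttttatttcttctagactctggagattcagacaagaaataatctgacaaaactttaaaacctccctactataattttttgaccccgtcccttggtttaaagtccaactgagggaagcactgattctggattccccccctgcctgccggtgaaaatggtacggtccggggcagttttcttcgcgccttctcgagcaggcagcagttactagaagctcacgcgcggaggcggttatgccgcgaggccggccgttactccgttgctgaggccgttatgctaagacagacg
Ccnl1: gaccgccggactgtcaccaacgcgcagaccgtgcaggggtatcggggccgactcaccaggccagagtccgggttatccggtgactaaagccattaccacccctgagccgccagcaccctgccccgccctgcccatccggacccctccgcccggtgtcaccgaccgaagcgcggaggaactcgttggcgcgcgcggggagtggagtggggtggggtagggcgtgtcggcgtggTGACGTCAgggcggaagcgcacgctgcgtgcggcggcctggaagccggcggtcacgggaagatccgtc

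Of the members, 27 had a promoter in this table. Ccnb2 held 3 CCAAT boxes on its own strand, whose first bases lay at −87, −54 and −21 from the start, and TTTGAA at −167 and 4. Cdk1 held 3 CCAAT boxes on the opposite strand and TTTGAA at −71 and −15. Ccna1 held 1 CCAAT box at −107, on the opposite strand, and Ccnb3 held no match to any motif searched. CCAAT was present in 12 of the 27 members and in 37.4% of all 32851 promoters of the table, and TTTGAA in 3 of the 27 and in 17.9% of all. TGACGTCA was found in Ccnl1 alone among the members, at −18, and in 1.79% of all promoters. The E2F sites TTTCCCGC and TTTGGCGC were found in 1 member, Cdk2, and in none, against 1.07% and 0.514% of all promoters. TTCGAA was in no member promoter and in 1.56% of all, and the heat shock element core GAANNTTC was in Ccnd3 and Ccnt1 and in 7.86% of all. Both strands were searched, no matches of different motifs overlapped, and a match is a string of letters and not a measured binding site.

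The first question the design poses is which cyclins and kinases changed after heat. Changes are log2 differences of signal plus 16 against controls of the same strain, with standard errors and Benjamini-Hochberg adjusted p-values from limma, and a change was called below 0.05. By 24 h, cyclin A1 had fallen and cyclins B3 and D2 had risen in both strains. The meiotic and mitotic genes Ccnb2 and Cdk1 passed the test as decreases in C57BL/6. All 35 members passed the limit on dim genes, and 20 of them, 57.1%, were called in at least 1 of the 8 comparisons, as were 48.6% of all genes tested.

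No member was called at 8 h in either strain. In C57BL/6, limma called 0.0888% of all genes tested, and 2 members had an unadjusted p under 0.05, 5.71% of members against 7.67% of all genes. In AKR/N it called 0.0381%, and 5 members had such a p, 14.3% against 9.95%. In C57BL/6, 3 members rose and 3 fell at 10 h, against 11.2% of all genes called, 4 rose and 7 fell at 12 h, against 19.1%, and 6 rose and 10 fell at 24 h, against 38.0%. The members' shares were 17.1%, 31.4% and 45.7%. In AKR/N, 1 member rose at 10 h, against 2.63% of all genes, 4 rose and 2 fell at 12 h, against 7.0%, and 5 rose and 5 fell at 24 h, against 23.4%. The members' shares there were 2.86%, 17.1% and 28.6%. At 24 h the share called was near the background in both strains, and the median change of the members was −0.07 in C57BL/6 and 0.04 in AKR/N, against 0.08 and −0.01 for all genes. Centring each array on its median turned the share of higher calls among all genes from 56.2% to 43.7% at 24 h in C57BL/6 and from 50.9% to 30.4% at 12 h, and the members' split to 4 higher and 10 lower and to 3 higher and 8 lower. Comparisons of 1 strain share its 2 control arrays, so its time points are not independent of each other.

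**Figure D1:**
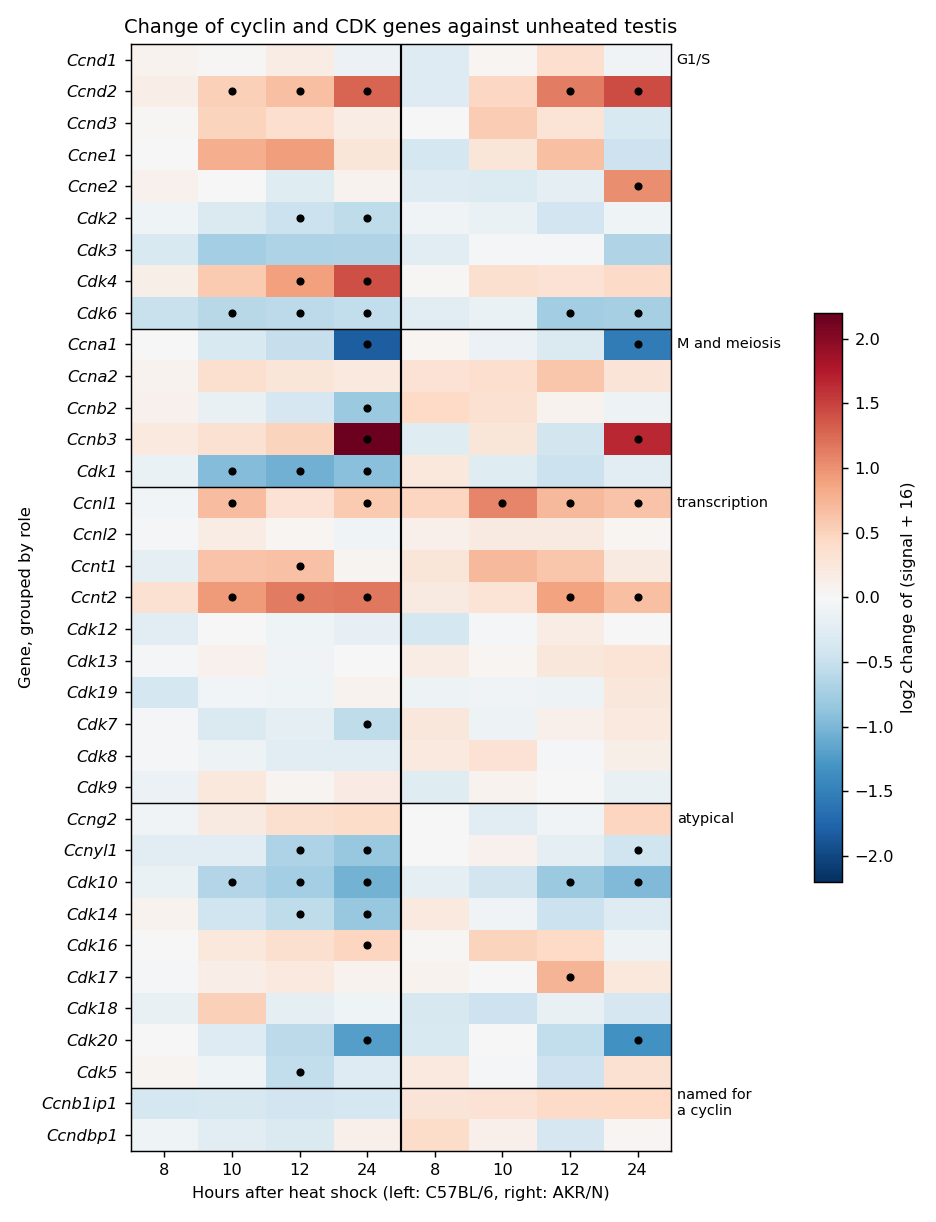
Log2 change of signal plus 16 for each of the 35 genes (rows, grouped by role) at each time after heat shock in C57BL/6 and AKR/N (columns); black dots mark changes called at an adjusted p below 0.05. The columns for 8 h hold no dot, and those for 24 h hold 16 dots in C57BL/6 and 10 in AKR/N.

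Among the members of M phase and meiosis, Ccna1, Ccnb2 and Cdk1 fell and Ccnb3 rose at 24 h in C57BL/6, 4 of 5 measured, and Ccna1 fell and Ccnb3 rose in AKR/N, 2 of 5. These are counts of few genes, beside 38.0% and 23.4% of all genes called at that time. Ccna1 encodes cyclin A1, the A-type cyclin of meiotic germ cells. Its signals in C57BL/6 were 699 and 878 in controls, 763 and 797 at 8 h, 600 and 644 at 10 h, 608 and 495 at 12 h, and 218 and 204 at 24 h. The AKR/N signals were 660 and 670, 702 and 676, 489 and 752, 536 and 523, and 313 and 151 in the same order. The 24 h arrays lay below all others of their strain. The change at 24 h was −1.82 ± 0.26 (SE, n = 2 against 2, adjusted p = 0.000121) in C57BL/6, to 0.284 of control, and −1.54 ± 0.26 (adjusted p = 0.00141) in AKR/N, to 0.344. The largest earlier change of Ccna1 was −0.50 at 12 h in C57BL/6, with an adjusted p of 0.19.

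Ccnb3 encodes cyclin B3, a B-type cyclin of early meiotic prophase. Its C57BL/6 signals were 4.81 and 22.4 in controls, 14.3 and 19.4 at 8 h, 21.8 and 17.3 at 10 h, 24.5 and 22.8 at 12 h, and 98.1 and 121 at 24 h. The AKR/N signals were 22.6 and 26.3, 24.2 and 11.9, 32.5 and 32.9, 4.87 and 28.7, and 105 and 117. Up to 12 h the signals lay near the limit for dim genes, and the 4 arrays at 24 h stood apart from the other 16. The change at 24 h was 2.15 ± 0.32 (adjusted p = 0.000163) in C57BL/6 and 1.65 ± 0.32 (adjusted p = 0.00302) in AKR/N. Since the controls were dim, the added 16 makes these values smaller than the ratio of the signals. Over the other settings the change ran from 1.17 to 2.89 in C57BL/6 and from 0.98 to 2.01 in AKR/N, the ends being those with 64 and 4 added. Ccna1 and Ccnb3 kept these 24 h calls in all 30 other settings. Many of these could not move the change itself. Each gene has 1 probe set, so averaging probe sets left it as it was. Leaving out an array of a group outside the comparison alters only the estimate of the spread. The same limits hold for the other genes with 1 probe set that are said below to keep a call in every setting.

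Ccnb2 encodes cyclin B2, a B-type cyclin that pairs with Cdk1. Ccnb1, which encodes another B-type partner of Cdk1, was not analysed here. Ccnb2 signals in C57BL/6 were 1380 and 1500 in controls, 1580 and 1500 at 8 h, 1300 and 1270 at 10 h, 1220 and 1000 at 12 h, and 771 and 861 at 24 h. In AKR/N they were 1010 and 1340, 1640 and 1510, 1290 and 1670, 1180 and 1290, and 1190 and 972, so that the heated arrays overlapped the controls at 24 h. The change of Ccnb2 at 24 h was −0.81 ± 0.17 (adjusted p = 0.00198) in C57BL/6 and −0.11 ± 0.17 (adjusted p = 0.667) in AKR/N. Cdk1 signals in C57BL/6 were 478 and 557 in controls, 459 and 466 at 8 h, 269 and 252 at 10 h, 278 and 206 at 12 h, and 272 and 259 at 24 h. All C57BL/6 arrays from 10 h on lay below those of controls and 8 h. Those in AKR/N were 441 and 511, 528 and 594, 315 and 486, 293 and 385, and 462 and 344. Cdk1 changed by −0.95, −1.06 and −0.92 (SE 0.21 each) at 10, 12 and 24 h in C57BL/6, with adjusted p-values of 0.0135, 0.00437 and 0.00365. In AKR/N its changes were −0.27, −0.48 and −0.24, and the adjusted p at 24 h was 0.438. The 10 h call of Cdk1 was lost when any of its 4 arrays was left out, with adjusted p-values from 0.0557 without C57BL/6 10 h replicate 1 to 0.101 without C57BL/6 control replicate 2, through 0.0568 without control replicate 1 and 0.0798 without 10 h replicate 2. Ccna2, the A-type cyclin of mitotic cells, was not called at any time, with changes of 0.26 and 0.61 at 12 h (adjusted p = 0.499 and 0.134) and 0.21 and 0.29 at 24 h in C57BL/6 and AKR/N. It was called at 12 h in AKR/N without C57BL/6 12 h replicate 1 or 2 (adjusted p = 0.0449) and with averaged probe sets (0.57, 0.0358), and in C57BL/6 without 12 h replicate 2 (0.72, 0.0459).

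In whole testis, fewer cells of a type and less RNA per cell cannot be told apart. Of 15 spermatocyte markers, 1 rose and 6 fell at 24 h in C57BL/6 and 1 rose and 4 fell in AKR/N, and their summed signal was 36000 to 37000 in C57BL/6 controls and 31900 to 33000 at 24 h, and 37600 to 38300 and 33900 to 34500 in AKR/N. These were 46.7% and 33.3% of the list, against 38.0% and 23.4% of all genes. Of 11 spermatogonial markers, 2 rose in C57BL/6 and 3 in AKR/N and none fell, 18.2% and 27.3%, with sums of 1820 to 1860 and 2810 to 2940 in C57BL/6 and 1980 to 2050 and 2760 to 2780 in AKR/N. Sums of round spermatid markers were 24700 to 25200 in C57BL/6 controls and 31800 to 33400 at 24 h, and 20500 to 23300 and 24400 to 25200 in AKR/N. Those of elongating spermatid markers were 75600 to 80700 and 90700 to 92500 in C57BL/6, and 81400 to 83500 and 79600 to 80300 in AKR/N. The part of these cell types in the changes of the M phase genes was not tested.

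**Figure D2:**
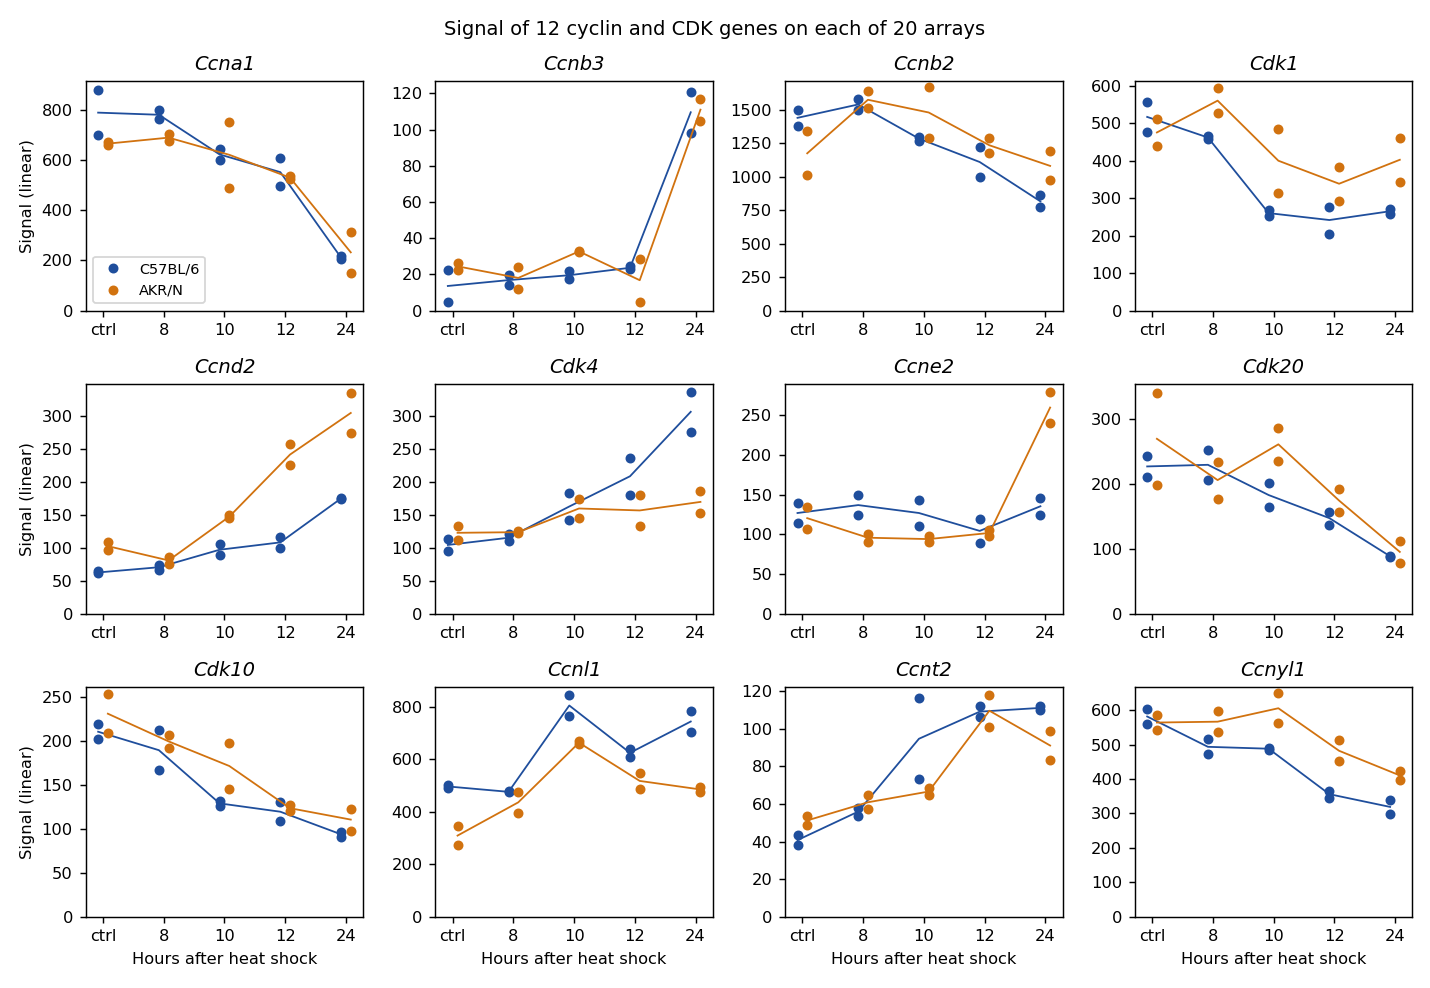
Signal on a linear scale of 12 genes on each of the 20 arrays, by time after heat shock; each point is 1 array and the lines join the means of the 2 arrays of a group. Ccna1 was lowest and Ccnb3 highest at 24 h in both strains, and Cdk4 reached 337 and 277 in C57BL/6 but 153 and 187 in AKR/N.

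Among the 9 members of G1 and S phase, Ccnd2 and Cdk4 rose and Cdk2 and Cdk6 fell at 24 h in C57BL/6, while Ccnd2 and Ccne2 rose and Cdk6 fell in AKR/N. That was 44.4% and 33.3% of the group, against 38.0% and 23.4% of all genes. Ccnd2 encodes cyclin D2, a D-type cyclin that activates Cdk4 and Cdk6. Its signals were 61.0 and 63.9 in C57BL/6 controls, 66.9 and 73.8 at 8 h, 105 and 88.7 at 10 h, 100 and 116 at 12 h, and 175 and 174 at 24 h. In AKR/N they were 108 and 96.6, 75.4 and 85.9, 149 and 145, 257 and 225, and 274 and 334. From 10 h on every heated array lay above both controls of its strain. The changes were 0.52, 0.66 and 1.28 (SE 0.13) at 10, 12 and 24 h in C57BL/6, with adjusted p-values of 0.0246, 0.00459 and 1.35e-05, and 0.46, 1.12 and 1.43 in AKR/N, with adjusted p-values of 0.0768, 0.000692 and 0.000129. The 10 h call in C57BL/6 was lost without 10 h replicate 1 (adjusted p = 0.155) or 2 (0.0526) and without control replicate 1 (0.128) or 2 (0.0976).

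Cdk4, the kinase partner of D-type cyclins, had signals of 95.1 and 114 in C57BL/6 controls, 121 and 110 at 8 h, 143 and 183 at 10 h, 237 and 181 at 12 h, and 337 and 277 at 24 h. AKR/N gave 134 and 112, 125 and 123, 174 and 146, 181 and 133, and 153 and 187. Heated arrays at 24 h were above controls in both strains, by 1.42 ± 0.19 (adjusted p = 7.23e-05) in C57BL/6 and by 0.42 ± 0.19 in AKR/N, where the adjusted p was 0.121. Cdk4 was also called at 12 h in C57BL/6, at 0.90 ± 0.19 (adjusted p = 0.00568), and lost this call without control replicate 1 (0.78, adjusted p = 0.0541). The probe set of Cdk4 carries the suffix for probes that may bind other transcripts.

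Ccne2 encodes cyclin E2, which activates Cdk2 at the entry to S phase. In AKR/N its signals were 107 and 134 in controls, 101 and 90.7 at 8 h, 89.8 and 98.4 at 10 h, 97.7 and 106 at 12 h, and 240 and 280 at 24 h. In C57BL/6 all 10 signals lay between 88.9 and 150, with 125 and 146 at 24 h. The change at 24 h was 1.02 ± 0.17 (adjusted p = 0.0016) in AKR/N and 0.08 ± 0.17 (adjusted p = 0.761) in C57BL/6. The AKR/N call held in every other setting tried. Ccne1, which encodes the related cyclin E1, ranged from 42.6 to 240, the latter on C57BL/6 12 h replicate 2, the array with the highest actin ratio. Ccne1 was not called. Without 12 h replicate 1 it was called at 12 h in C57BL/6 (1.58, adjusted p = 0.042, against 0.92 and 0.175 with that array).

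Cdk6, the other kinase of D-type cyclins, had C57BL/6 signals of 120 and 137 in controls, 95.4 and 78.8 at 8 h, 76.3 and 80.7 at 10 h, 74.9 and 86.7 at 12 h, and 90.1 and 77.1 at 24 h. The AKR/N signals were 135 and 132, 114 and 106, 127 and 110, 64 and 80.3, and 65.5 and 83.9. All heated arrays of a strain were below its controls from 8 h on. The changes were −0.61, −0.58 and −0.54 (SE 0.15) at 10, 12 and 24 h in C57BL/6 (adjusted p = 0.0197, 0.0164 and 0.0112), and −0.77 and −0.73 at 12 and 24 h in AKR/N (adjusted p = 0.0098 and 0.00404). Of these, the AKR/N value at 24 h held in every setting. In C57BL/6 the 10 h call was lost without any of its 4 arrays (adjusted p = 0.0989 and 0.0765 without 10 h replicate 1 and 2, and 0.0664 and 0.144 without control replicate 1 and 2). The 12 h call was lost without 12 h replicate 1 (0.081) or control replicate 2 (0.124), and the 24 h call without 24 h replicate 2 (0.0905) or control replicate 2 (0.093). In AKR/N the 12 h call was lost without 12 h replicate 1 (0.103) or control replicate 1 (0.0567).

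Cdk2, the kinase of E- and A-type cyclins that meiotic germ cells also require, had C57BL/6 signals of 254 and 256 in controls, 224 and 254 at 8 h, 218 and 183 at 10 h, 186 and 171 at 12 h, and 182 and 154 at 24 h. Its changes were −0.48 ± 0.14 (adjusted p = 0.034) at 12 h and −0.56 ± 0.14 (adjusted p = 0.0074) at 24 h. The AKR/N signals ranged from 179 to 301, and the change at 24 h was −0.09 (adjusted p = 0.707). In C57BL/6 the 24 h call was lost without 24 h replicate 2 (adjusted p = 0.0737), and the 12 h call without 12 h replicate 1 (0.0587) or 2 (0.154) or control replicate 1 (0.119) or 2 (0.137). Ccnd1, Ccnd3 and Cdk3, which complete the group with Ccne1, were called at no time against controls. For Ccnd3, a pseudocount of 64 gave a call at 10 h (0.45, adjusted p = 0.0467) and averaged probe sets gave one at 24 h (0.38, 0.0487) in C57BL/6. Ccnd3 ranged from 231 to 636 and Cdk3 from 3.2 to 49.7, near the limit for dim genes.

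Sertoli cells are the somatic cells that support the germ cells. At 24 h, 7 of 11 Sertoli cell markers rose in C57BL/6 and 6 of 11 in AKR/N, and none fell, 63.6% and 54.5% against 38.0% and 23.4% of all genes. The summed signal of 12 such markers was 9720 to 9770 in C57BL/6 controls and 17700 to 18300 at 24 h, and 10500 to 11100 and 16100 to 16800 in AKR/N. Sertoli cells were not alone in this. Sums of endothelial markers were 210 to 225 in C57BL/6 controls and 394 to 437 at 24 h, and 261 to 283 and 333 to 362 in AKR/N. Those of macrophage and leukocyte markers were 923 to 928 and 1430 to 1510, and 1260 to 1380 and 1820 to 1920. Peritubular myoid cell sums were 3060 to 3160 and 3840 to 4010, and 3060 to 3310 and 3720 to 4120. Leydig cell sums were 3070 to 3350 and 3350 to 3720, but fell in AKR/N from 5530 to 5720 to 4050 to 4170. The part of these cell types in the changes of Ccnd2 and Cdk4 was not tested.

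Among the 10 members that act on transcription and RNA processing, Ccnl1 and Ccnt2 rose at 24 h in both strains and Cdk7 fell in C57BL/6, 30% and 20% of the group against 38.0% and 23.4% of all genes. Ccnl1 encodes cyclin L1, a cyclin of splicing complexes, and was the only member called at 10 h in AKR/N. Its AKR/N signals were 273 and 345 in controls, 395 and 476 at 8 h, 669 and 656 at 10 h, 487 and 547 at 12 h, and 475 and 494 at 24 h. The C57BL/6 signals were 503 and 489, 478 and 473, 845 and 763, 640 and 608, and 704 and 782. Both strains had their highest arrays at 10 h, except that 1 C57BL/6 array at 24 h exceeded 1 at 10 h. The changes were 1.07, 0.72 and 0.63 (SE 0.13) at 10, 12 and 24 h in AKR/N, with adjusted p-values of 0.0024, 0.00836 and 0.00516, and 0.68, 0.32 and 0.57 in C57BL/6, with 0.00802, 0.111 and 0.00446. The C57BL/6 call at 10 h was lost without 10 h replicate 1 (0.0589) or control replicate 1 (0.0547) or 2 (0.0566). In AKR/N the 12 h call was lost without control replicate 1 (0.0742), and the 24 h call without control replicate 1 (0.0552) or 24 h replicate 2 (0.0521).

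Ccnt2 and Ccnt1 encode cyclins T2 and T1, the partners of Cdk9 in the complex that releases paused RNA polymerase II. Ccnt2 signals were 38.3 and 43.2 in C57BL/6 controls, 53.8 and 58.0 at 8 h, 116 and 73.2 at 10 h, 112 and 106 at 12 h, and 112 and 110 at 24 h. In AKR/N they were 53.7 and 48.7, 57.1 and 64.6, 68.4 and 64.7, 101 and 118, and 83.1 and 98.9. All heated arrays lay above the controls of their strain. The changes were 0.93, 1.14 and 1.16 (SE 0.16) at 10, 12 and 24 h in C57BL/6 (adjusted p = 0.00429, 0.00081 and 0.000103), and 0.89 and 0.67 at 12 and 24 h in AKR/N (adjusted p = 0.00688 and 0.0099). The AKR/N call at 24 h was lost without 24 h replicate 2 (adjusted p = 0.103) or control replicate 2 (0.0595).

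Ccnt1 was called once, at 12 h in C57BL/6, where its signals were 168 and 232 against 120 and 119 in controls. The change was 0.65 ± 0.20 (adjusted p = 0.0367), and it was lost without 12 h replicate 2 (0.44, adjusted p = 0.252) or control replicate 1 (0.125) or 2 (0.141). At 10 h in C57BL/6 the signals of Ccnt1 were 187 and 202, a change of 0.63 that was not called. Other settings did call it there, among them a pseudocount of 64 (0.49, adjusted p = 0.0261) and array weights (0.0378). A stricter limit on dim genes at the 60th percentile called it at 10 h in C57BL/6 (0.0372) and in AKR/N (0.71, 0.0478). At 12 h in AKR/N the signals of Ccnt1 were 144 and 93.5 against 63.7 and 78.5, a change of 0.61 with an adjusted p of 0.0825. Cdk7, the kinase that activates other cyclin-dependent kinases and acts in transcription factor TFIIH, had signals of 265 and 280 in C57BL/6 controls and 176 and 183 at 24 h. Its change was −0.56 ± 0.17 (adjusted p = 0.017) there and 0.22 (adjusted p = 0.372) in AKR/N. The call was lost without 24 h replicate 1 (0.0843) or 2 (0.0562) or control replicate 1 (0.0523) or 2 (0.09). The other members of this group, namely Ccnl2, the Mediator kinases Cdk8 and Cdk19, Cdk9, and the polymerase kinases Cdk12 and Cdk13, were called at no time against controls.

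Among the 9 atypical members, Cdk20, Cdk10 and Ccnyl1 fell at 24 h in both strains. Cdk14 fell and Cdk16 rose in C57BL/6. The share called was 55.6% and 33.3%, against 38.0% and 23.4% of all genes. Cdk20, a kinase known from cilia and Hedgehog signalling, had C57BL/6 signals of 210 and 243 in controls, 252 and 206 at 8 h, 164 and 201 at 10 h, 137 and 157 at 12 h, and 88.9 and 87.8 at 24 h. The AKR/N signals were 340 and 198, 177 and 234, 286 and 235, 192 and 156, and 112 and 78.1. The 24 h arrays were below all others in each strain. The change at 24 h was −1.21 ± 0.23 (adjusted p = 0.00111) in C57BL/6 and −1.33 ± 0.23 (adjusted p = 0.00183) in AKR/N, and both were kept in every setting. Its probe set carries a suffix for probes shared between transcripts.

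Cdk10, a kinase that pairs with cyclin M, had signals of 202 and 219 in C57BL/6 controls, 167 and 212 at 8 h, 126 and 132 at 10 h, 109 and 130 at 12 h, and 90.7 and 96.9 at 24 h. AKR/N gave 253 and 209, 207 and 192, 198 and 145, 127 and 120, and 123 and 98.1. The 12 h and 24 h arrays lay below the controls in both strains. The changes were −0.64, −0.74 and −1.04 (SE 0.16) at 10, 12 and 24 h in C57BL/6 (adjusted p = 0.0246, 0.00774 and 0.000255), and −0.82 and −0.97 at 12 and 24 h in AKR/N (adjusted p = 0.0117 and 0.00157). The 24 h calls were kept in every setting. The 10 h call was lost without 10 h replicate 1 (0.111) or 2 (0.0886) or control replicate 1 (0.0889) or 2 (0.142). At 12 h the C57BL/6 call was lost without control replicate 2 (0.0629), and the AKR/N call without 12 h replicate 1 (0.0713) or control replicate 1 (0.0894).

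Ccnyl1 and Cdk16 encode a cyclin Y-like protein and its kinase, which act together in sperm formation. Ccnyl1 signals were 602 and 561 in C57BL/6 controls, 472 and 515 at 8 h, 485 and 491 at 10 h, 346 and 366 at 12 h, and 340 and 298 at 24 h. In AKR/N they were 543 and 585, 536 and 597, 649 and 562, 452 and 512, and 424 and 397. The 12 h and 24 h arrays were below the controls in both strains. The changes were −0.68 ± 0.12 (adjusted p = 0.00247) at 12 h and −0.84 ± 0.12 (adjusted p = 0.000162) at 24 h in C57BL/6, and −0.44 ± 0.12 (adjusted p = 0.0199) at 24 h in AKR/N. The AKR/N call was lost without 24 h replicate 2 (0.135) or control replicate 2 (0.104). Cdk16 had signals of 537 and 602 in C57BL/6 controls and 787 and 797 at 24 h, a change of 0.47 ± 0.14 (adjusted p = 0.0154). In AKR/N its signals were 528 and 528 in controls, 768 and 733 at 10 h, 761 and 684 at 12 h, and 493 and 475 at 24 h, with changes of 0.49, 0.44 and −0.12 and adjusted p-values of 0.0704, 0.0682 and 0.56. The C57BL/6 call was lost without 24 h replicate 1 (0.0636) or 2 (0.0676) or control replicate 1 (0.111).

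Cdk14, a kinase that pairs with cyclin Y, had C57BL/6 signals of 89.9 and 86.2 in controls, 82.2 and 105 at 8 h, 67.0 and 54.6 at 10 h, 64.4 and 45.9 at 12 h, and 37.8 and 47.7 at 24 h. The change was −0.56 ± 0.17 (adjusted p = 0.0346) at 12 h and −0.83 ± 0.17 (adjusted p = 0.00173) at 24 h. In AKR/N its changes at those times were −0.47 and −0.29, with adjusted p-values of 0.108 and 0.231. The 12 h call was lost without 12 h replicate 2 (0.244) or control replicate 1 (0.138) or 2 (0.117), and the 24 h call was kept in every setting.

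Of the remaining atypical kinases, Cdk17 and Cdk5 were each called once. Cdk17, a close relative of Cdk16, rose at 12 h in AKR/N, with 233 and 197 against 132 and 111 in controls. The change was 0.74 ± 0.13 (adjusted p = 0.00657), and it was lost without 12 h replicate 1 (0.0776) or control replicate 2 (0.0514). Cdk5, best known from neurons, fell at 12 h in C57BL/6, with 92.1 and 101 against 148 and 147, a change of −0.54 ± 0.17 (adjusted p = 0.0395). This call was lost without either 12 h array (0.13 and 0.0889) and without either control array (0.137 and 0.142), and also, narrowly, without AKR/N 24 h replicate 1 or 2 (0.0513) or AKR/N 8 h replicate 1 or 2 (0.0512), which enter only through the shared estimate of the spread. Cdk18 was called at no time against controls. Ccng2 was not called either (0.41 and 0.48 at 24 h in C57BL/6 and AKR/N, adjusted p = 0.0979 and 0.0736), but was called in C57BL/6 with array weights (0.0437) and without AKR/N 10 h replicate 1 or 2 (0.0473), and in AKR/N with a pseudocount of 64 (0.35, 0.0498) and without either of those arrays (0.0347). Ccndbp1, which binds D-type cyclins, and Ccnb1ip1, a ubiquitin ligase of meiotic crossing over, were not called either. At 12 h in C57BL/6, quantile normalization called Ccndbp1 (−0.42, adjusted p = 0.0493) and leaving out 12 h replicate 1 called Ccnb1ip1 (−0.69, 0.0351). In all, 15 members were called in none of the 8 comparisons.

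The second question is whether 24 h differed from the earlier times. Against the mean of 8, 10 and 12 h, 4 members were higher and 6 lower at 24 h in C57BL/6, 28.6% of members against 28.7% of all genes. In AKR/N, 6 were higher and 6 lower, 34.3% against 25.0%. Ccna1 (−1.54 and −1.41), Cdk20 (−0.93 and −1.04), Cdk10 (−0.53 and −0.49) and Ccnyl1 (−0.45 and −0.41) were lower, and Ccnb3 (1.80 and 1.78, with 1.05 to 2.25 and 1.02 to 2.27 over the other settings) and Ccnd2 (0.84 and 1.0) higher, in C57BL/6 and AKR/N. Ccne2 was higher at 24 h in AKR/N, by 1.28, and Cdk4 in C57BL/6, by 0.89. The remaining calls were Ccnb2 (−0.66), Cdk14 (−0.52) and Ccndbp1 (0.33) in C57BL/6, and Ccnd3 (−0.63), Ccng2 (0.58), Cdk16 (−0.44), Cdk5 (0.43) and Cdk19 (0.35) in AKR/N. The count fell to 6 in C57BL/6 without 24 h replicate 1, and in AKR/N to 7 without 24 h replicate 1 and to 4 without 24 h replicate 2. Without replicate 1 at 24 h in C57BL/6, Ccnb2 (adjusted p = 0.0614), Cdk10 (0.103), Cdk14 (0.187) and Ccndbp1 (0.226) were lost, and without replicate 2 Ccnyl1 (0.0833) and Ccndbp1 (0.116). Without replicate 2 at 24 h in AKR/N, Cdk20 (0.0692), Cdk10 (0.258), Ccnyl1 (0.14), Ccnd3 (0.0763), Ccng2 (0.0848), Cdk16 (0.127), Cdk5 (0.204) and Cdk19 (0.0996) were lost, and without replicate 1 Cdk5 (0.149), Cdk16 (0.0558), Ccng2 (0.101), Ccnd3 (0.054) and Cdk19 (0.326). Ccndbp1 was also lost without 8 h replicate 1 or 2 or 10 or 12 h replicate 2 of C57BL/6 (0.0543 to 0.0579), Cdk5 without 8, 10 or 12 h replicate 1 of AKR/N (0.0635 to 0.0714), and Cdk19 without either C57BL/6 24 h array or any AKR/N array other than 12 h replicate 2 (0.0518 to 0.326). Other settings also ended these calls. Ccndbp1 was lost with a pseudocount of 64 (0.0615), median centring (0.217), quantile normalization (0.197) and arrays of the same strain only (0.0948). Cdk5 was lost with median centring (0.0756), quantile normalization (0.071) and averaged probe sets (0.0761). Cdk19 was lost with no limit on dim genes (0.055), median centring (0.125), averaged probe sets (0.8), the replicate block (0.0582) and arrays of the same strain only (0.0688). Ccna1, Ccnb3 and Ccnd2 in both strains, Ccne2 in AKR/N and Cdk4 and Cdk20 in C57BL/6 were kept without any 1 array.

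Whether the strains responded alike was asked in 2 ways. At 24 h the same 9 members were called in both strains, all in the same direction. That was 56.2% of the C57BL/6 calls and 90.0% of the AKR/N calls. The changes of the strains share no arrays, but the spread of each gene was estimated over the arrays of both strains. The calls of the strains are therefore not independent of each other. Over all genes tested, 44.8% of the C57BL/6 calls and 72.9% of the AKR/N calls were called in both at 24 h. The 9 members were Ccna1, Ccnb3, Ccnd2, Ccnl1, Ccnt2, Ccnyl1, Cdk6, Cdk10 and Cdk20. At 12 h, 4 members were called in both strains, 36.4% of the C57BL/6 calls and 66.7% of the AKR/N calls, against 25.2% and 68.9% over all genes. These shares are descriptions and were not tested against the background. The difference between the strains' changes was then tested for each gene. It was called for no member at 8, 10, 12 or 24 h, against 0%, 0.0317%, 0% and 1.76% of all genes. At an unadjusted p under 0.05 it reached 12 members at 24 h, 34.3%, against 19.4% of all genes, and 4, 4 and 5 members at 8, 10 and 12 h, against 5.66%, 12.3% and 9.37%.

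The members with the smallest adjusted p for this difference at 24 h were Ccne2 and Cdk4. For Ccne2 the AKR/N change exceeded that of C57BL/6 by 0.94 ± 0.25 (adjusted p = 0.068), and for Cdk4 it was lower by −1.0 ± 0.26 (adjusted p = 0.0695). Both passed with a pseudocount of 64 (adjusted p = 0.0251 and 0.0277), with a stricter limit on dim genes at the 60th percentile (0.0403 and 0.0416) and with array weights (0.0363 and 0.0345), and array weights also called Cdk7 (0.78, adjusted p = 0.0454, against 0.0971 without them). For Ccnb2 the difference was 0.69 (adjusted p = 0.133) and for Cdk1 0.68 (adjusted p = 0.23), so the calls of these genes in C57BL/6 alone do not show that the strains differed. Ccnb1ip1 was below control in C57BL/6 and above it in AKR/N on every heated array. The differences were 0.68, 0.68, 0.85 and 0.82 at 8, 10, 12 and 24 h, with adjusted p-values of 0.816, 0.328, 0.414 and 0.115. These differences are not independent, because all use the same controls, at 164 and 156 in C57BL/6 and 94.2 and 107 in AKR/N. The heated arrays of the strains overlapped, at 93.2 to 141 in C57BL/6 and 116 to 154 in AKR/N.

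**Figure D3:**
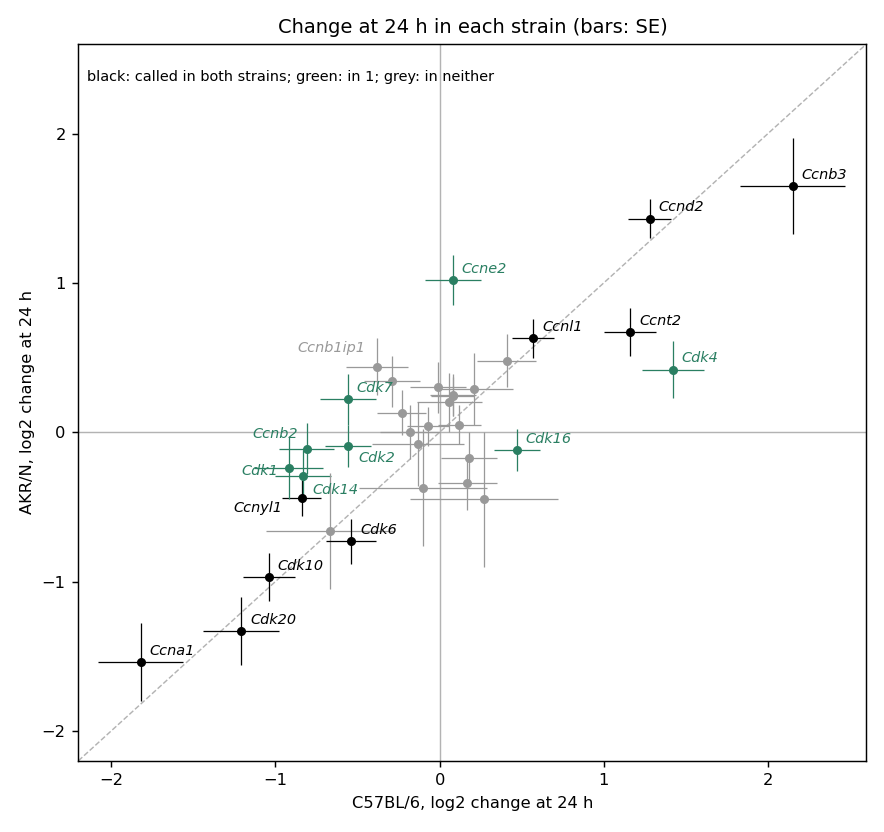
Log2 change at 24 h in C57BL/6 (horizontal) against AKR/N (vertical) for the 35 genes; bars are standard errors, black marks genes called in both strains, green in 1 and grey in neither, and the dashed line marks equal change. Ccne2 lies above the line at 0.08 and 1.02, and Cdk4 below it at 1.42 and 0.42.

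Signals of the probe sets used also differed between the strains. In controls, AKR/N had more signal than C57BL/6 for Ccnd2 (0.59, adjusted p = 0.0168) and Ccndbp1 (0.55, adjusted p = 0.0255) and less for Ccnl1 (−0.66, adjusted p = 0.00894), 8.57% of members against 6.29% of all genes. All of these were lost without C57BL/6 control replicate 1 or 2 or AKR/N control replicate 1, and centring each array on its median gave 0 higher and 3 lower members. The share of all genes called between controls in these settings was not counted. Over the 5 conditions together, 7 members were higher and 4 lower in AKR/N, 31.4% against 27.8% of all genes. Ccndbp1 was higher by 0.69 ± 0.06 (adjusted p = 1.02e-06) and Ccnd2 by 0.62 ± 0.06 (adjusted p = 3.21e-06). Ccndbp1 signals ran from 44.9 to 77.0 in C57BL/6 and from 76.4 to 147 in AKR/N, so the strains touched only at the ends of their ranges. Ccndbp1 has no other probe set of its own on which this could be checked. Ccnl1 (−0.39, adjusted p = 0.000261) and Ccnt1 (−0.51, adjusted p = 0.000714) were lower in AKR/N. Ccnd1, which encodes cyclin D1, was higher by 0.69 (adjusted p = 0.000986) on the probe set used, but its other probe sets gave −0.37 and −0.23. Cdk3 (0.71), Cdk1 (0.35), Ccnyl1 (0.24) and Cdk2 (0.20) were higher, and Ccnd3 (−0.43) and Cdk17 (−0.31) lower. Cdk3 was dim, at 3.2 to 28.1 in C57BL/6 and 9.42 to 49.7 in AKR/N beside the limit of 17.5 for dim genes, and its difference ran from 0.30 with 64 added to 1.12 with 4 added. With all probe sets of a gene averaged, Ccnd1 (0.03), Ccnd3 (−0.10), Ccnt1 (−0.27, adjusted p = 0.0599) and Cdk2 (0.06) lost their calls. Cdk2 also lost it without C57BL/6 control replicate 1 or 2, 8 h replicate 1, or 10, 12 or 24 h replicate 2, and without AKR/N control replicate 1, 8 or 12 h replicate 2, or 24 h replicate 1, with adjusted p-values from 0.0514 to 0.0702, and under median centring (0.18, 0.102).

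Members with several probe sets allow a check within the same arrays. There were 21 such members with 49 other probe sets, of which 43 passed the limit on dim genes. For Ccnd2, the 5 other probe sets past it gave 0.91 to 1.51 at 24 h in C57BL/6 and 1.09 to 1.62 in AKR/N, the direction of the set used. For Cdk4, both others were higher as well, by 1.09 and 1.01 in C57BL/6 and 0.71 and 0.50 in AKR/N, where the set used gave 0.42. With its sets averaged, Cdk4 was called at 24 h in AKR/N (0.54, adjusted p = 0.014). For Cdk6 the other set gave −0.37 and −0.49. Other genes were less uniform. The Ccnt2 sets ran from −0.27 to 0.75 in C57BL/6 and from −0.61 to 0.69 in AKR/N, against 1.16 and 0.67 on the set used. The 4 other sets of Cdk7 lay between −0.11 and 0.28 in C57BL/6, against −0.56, and those of Cdk14 gave −0.55 and −0.01, against −0.83. For Cdk16 in AKR/N the set used gave −0.12 and another 0.81. Averaging all sets of a gene ended several calls. For Ccnt2 it gave 0.42 (adjusted p = 0.0577) at 12 h in C57BL/6 and 0.36 (0.149) and 0.26 (0.234) at 12 and 24 h in AKR/N. Cdk6 was then at −0.36 (0.103) and −0.31 (0.117) at 10 and 12 h in C57BL/6 and −0.29 (0.201) at 12 h in AKR/N. In C57BL/6, Cdk7 went to −0.03 (0.902) and Cdk2 to −0.34 (0.055) at 24 h, and at 12 h Cdk2 to −0.37 (0.0644), Cdk5 to −0.21 (0.403) and Ccnt1 to 0.45 (0.176). Ccnd2 at 10 h in C57BL/6 went to 0.40 (0.086). Ccna1, Ccnb2, Ccnb3, Ccne2, Cdk1, Cdk10, Cdk20, Ccnl1 and Ccnyl1 have no other probe set of their own.

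**Figure D4:**
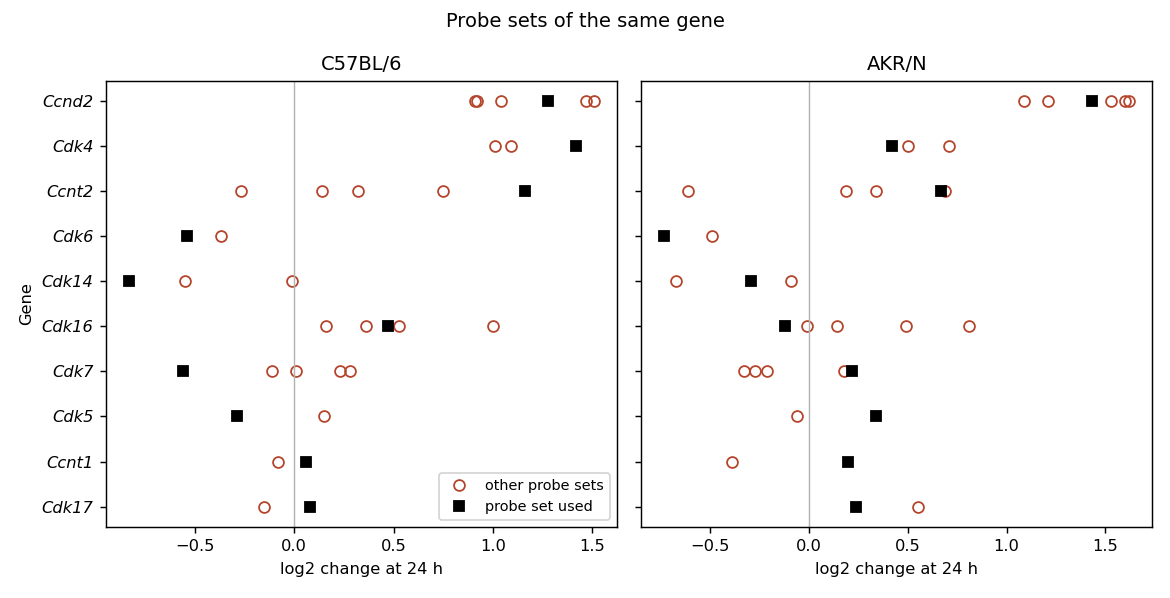
Log2 change at 24 h of each probe set of 10 genes, in C57BL/6 (left) and AKR/N (right); filled squares are the probe set used and open circles the others past the limit on dim genes. All sets of Ccnd2 and Cdk4 lie right of 0 in both strains, while those of Ccnt2 and Cdk7 lie on both sides.

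Other genes of the cell cycle were grouped in lists by function, and their counts are descriptions to be read against the 38.0% of all genes called in C57BL/6 and 23.4% in AKR/N at 24 h. The share called was 62.5% and 25.0% for inhibitors of the kinases, 26.7% and 6.67% for enzymes and proteins that act on them, and 47.4% and 21.1% for the RB and E2F group. It was 64.7% and 23.5% for replication genes, 52.2% and 26.1% for cyclin degradation and 36.4% and 36.4% for cyclins with no number. Of 8 inhibitors of cyclin-dependent kinases, 2 rose and 3 fell at 24 h in C57BL/6 and 2 fell in AKR/N, with medians of 0.23 and −0.15, where those of all genes were 0.08 and −0.01. Cdkn1a, which encodes p21, an inhibitor of Cdk2 complexes, had control signals of 66.3 and 45.1 in C57BL/6 and 56.6 and 59.9 in AKR/N. At 24 h they were 401 and 378 in C57BL/6 and 68.7 and 119 in AKR/N. The changes were 2.36, 2.89 and 2.52 (SE 0.26) at 10, 12 and 24 h in C57BL/6, all called, and 1.34, 3.03 and 0.53 in AKR/N, where the last had an adjusted p of 0.157. The strains' changes differed at 24 h by −1.99 ± 0.36 (adjusted p = 0.0223). The Cdk4 and Cdk6 inhibitors Cdkn2d (−1.46 and −0.95) and Cdkn2c (−0.37 and −0.69) fell in C57BL/6 and AKR/N.

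Among 15 measured kinases, phosphatases and binding proteins that act on these enzymes, 4 fell in C57BL/6 and 1 in AKR/N at 24 h and none rose, with medians of −0.09 and 0.01. Spdya, an activator of Cdk2 in meiotic germ cells, changed by −1.12 (adjusted p = 0.000299) in C57BL/6 and 0.03 in AKR/N, and the difference was 1.15 ± 0.25 (adjusted p = 0.0418). Its signals were 883 and 921 in C57BL/6 controls and 394 and 417 at 24 h, and 536 and 547 and then 518 and 587 in AKR/N. Cks2, a small subunit of Cdk1 complexes, changed by −1.30 (adjusted p = 0.000154) and −0.40 (adjusted p = 0.142), and Pkmyt1, a kinase that inhibits Cdk1, by −0.61 (adjusted p = 0.00391) and −0.27 (adjusted p = 0.177).

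Of 19 genes of the RB and E2F group, which controls genes of S phase, 3 rose and 6 fell in C57BL/6 and 1 rose and 3 fell in AKR/N, with medians of −0.04 and 0. Rb1 rose by 1.02 and 0.60 and Lin37 fell by 0.61 and 0.89. E2f7 changed by −0.73 and 0.22, with a difference of 0.95 (adjusted p = 0.0471). Of 17 replication genes, 4 rose and 7 fell in C57BL/6 and 2 rose and 2 fell in AKR/N, with medians of −0.17 and 0.12. Gins1, a subunit of the replicative helicase, changed by −1.49 in C57BL/6 and −0.40 (adjusted p = 0.0897) in AKR/N, with a difference of 1.10 (adjusted p = 0.0338), and Rrm1, of ribonucleotide reductase, fell by 1.08 and 0.66. Pola1, of DNA polymerase alpha, changed by 1.47 (adjusted p = 0.000507) and 0.56 (adjusted p = 0.128), from dim control signals of 8.13 and 2.96 in C57BL/6.

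Of 23 genes of cyclin degradation, 5 rose and 7 fell in C57BL/6 and 2 rose and 4 fell in AKR/N, with medians of 0.02 and 0.07. Ube2s, the ubiquitin-conjugating enzyme of the anaphase-promoting complex, fell from 3420 and 3910 to 1080 and 1170 in C57BL/6 and from 2880 and 3210 to 672 and 618 in AKR/N. Its changes were −1.69 and −2.21 (SE 0.16, adjusted p = 8.31e-06 and 2.06e-05). Anapc11, a catalytic subunit of that complex, fell by 1.29 and 0.91, and its activator Cdc20 by 0.88 and 0.40. Of 11 cyclins and cyclin-like genes with no number in the symbol, 1 rose and 3 fell in C57BL/6 and 2 rose and 2 fell in AKR/N, with medians of −0.21 and −0.10. Ccnk, the partner of Cdk12 and Cdk13, fell by 0.72 and 1.19, Ccnf changed by −1.38 (adjusted p = 0.000534) and −0.35 (adjusted p = 0.312), and Ccny, a partner of Cdk14 and Cdk16, by −0.57 (adjusted p = 0.00693) and −0.18 (adjusted p = 0.404).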

How the data were processed

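RNA of 20 testis samples was labelled with biotin through a one-cycle cDNA kit, per the labels' protocols, and read on 1 array each. The deposited values are probe-set intensity on a linear scale, with the same trimmed mean on every array. The summary method and software are not given in the sources used. Of 45101 probe sets, 34945 have 1 gene in the platform annotation, which gave the symbols. One probe set per gene was kept, that of highest mean log2 of signal plus 16. Genes whose highest group mean reached the 40th percentile (log2 5.07) were tested, 15762 in all. A mean per group over all 20 arrays was fitted in limma 3.58.1 (R 4.3.3), and p-values were adjusted by Benjamini-Hochberg within each of 16 comparisons. The scripts were tested on simulated data. Members, lists and roles were chosen with earlier results of these data known. Members called in a heat comparison are described with signals of single arrays, for some of them in part of the groups only. Up to 6 members from the strain comparisons and up to 3 genes of each list were added by smallest adjusted p. The rest are given by value or range. Alternatives changed the pseudocount (4, 64), the filter, the scaling, the choice of probe set, the arrays entered, array weights and the replicate block. The number of arrays limits the precision. Samples were not treated as paired by replicate number. A comparison of member proteins was not made.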

Additional observations from a re-analysis of the deposited data

Results flagged for a closer look

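In 13 cases the heated arrays of 1 strain at a given time all lay above both of its controls. Those of the other strain at that time all lay below both of theirs. The share of all genes with this pattern was not counted, so the number of cases is only a description. Cases at different times share control arrays and are not independent. The difference of the strains' changes (AKR/N minus C57BL/6, log2) was tested with limma, and none of the 13 was called. For Ccnb1ip1, higher in AKR/N, it was 0.68 at 8 h, 0.68 at 10 h, 0.85 at 12 h and 0.82 at 24 h, with adjusted p-values of 0.816, 0.328, 0.414 and 0.115. At 8 h, Ccndbp1 (0.49), Ccnl1 (0.54) and Cdk1 (0.38) were above control in AKR/N and below it in C57BL/6, and Ccnd2 (−0.43) the opposite, with adjusted p-values of 0.816, 0.783, 0.949 and 0.853. Cdk8, a Mediator kinase, was above control in AKR/N and below it in C57BL/6 at 10 h (0.43, adjusted p = 0.455) and 24 h (0.36, adjusted p = 0.39), as was Cdk7 at 24 h (0.78, adjusted p = 0.0971). Ccnd3 (−0.51, adjusted p = 0.283) and Cdk16 (−0.59, adjusted p = 0.118) were below control in AKR/N and above it in C57BL/6 at 24 h.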

How the results depend on the processing

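Of 86 called changes of members, 40 were kept in all of the 30 other settings that applied to them, 46 were lost in at least 1, and 1 of these reversed. How many calls over all genes were kept was not counted, so the losses are not shown to be particular to the members. The reversal was Cdk16 in AKR/N at 24 h against the mean of 8, 10 and 12 h, which went from −0.44 to 0.10 when all probe sets of a gene were averaged. Averaging kept 64 of the 86 calls. It leaves the values of genes with 1 probe set as they were, so their calls were not put to a check by it. Every call that it ended was of the 21 members with several probe sets. Median centring kept 76 of the 86. Among those it lost were Ccnl1 (adjusted p = 0.0598) and Cdk16 (0.0928) at 24 h, Ccnt1 at 12 h (0.0696) and Ccnd2 at 10 h (0.0518) in C57BL/6. Ccnd2 (0.0596) and Ccndbp1 (0.134) between controls were lost too. With arrays of the same strain only, 62 of 72 calls were kept, and Ccnyl1 at 24 h (0.0631) and Ccnl1 (0.0565) and Cdk10 (0.0561) at 12 h in AKR/N and Cdk16 at 24 h (0.0513) in C57BL/6 were among those lost. At 12 h in C57BL/6 the 11 called members became 6 with averaged probe sets and 7 with array weights. At 10 h in AKR/N the 1 called member became 2 with a pseudocount of 64 and 4 with the filter at the 60th percentile. The strain difference at 24 h, with 0 called members, gave 2 with that pseudocount, 2 with that filter and 3 with array weights. The cause was not tested.

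Without 1 array, the number of called members ranged from 1 to 7 at 10 h, 5 to 12 at 12 h and 12 to 17 at 24 h in C57BL/6, and from 1 to 2, 3 to 7 and 7 to 11 in AKR/N. Against the mean of the earlier times it ranged from 6 to 11 and from 4 to 13, between control groups from 0 to 4 and over the 5 conditions from 10 to 13. It was 0 throughout at 8 h and for the strain differences. The share of all genes called without 1 array was not counted, so these numbers are only descriptions. At 10 h in C57BL/6 it was 1 without control replicate 1 or 2 or 10 h replicate 1, and 2 without 10 h replicate 2. At 12 h in C57BL/6 it was 6 without control replicate 1 and 5 without control replicate 2, and at 12 h in AKR/N 3 without control replicate 1 or 12 h replicate 1. At 10 h in AKR/N it was 2 without C57BL/6 10 h replicate 1 or 2.

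Samples were not treated as paired by replicate number. Over 45 pairs of groups the deviations of equal numbers had correlations between −0.28 and 0.30, with a median of −0.01. Of these, 4 exceeded 0.1 and 6 lay beyond 0.1 in the negative direction. Whether some groups shared a batch was not tested. With the replicate block, 84 of the 86 calls were kept, and Cdk5 at 12 h in C57BL/6 (adjusted p = 0.0514) and Cdk19 at 24 h against earlier times in AKR/N (0.0582) were lost. The called members with the block were 6 at 10 h, 10 at 12 h and 16 at 24 h in C57BL/6 and 1, 6 and 10 in AKR/N. Genes near a signal of 17.5, such as Cdk3, Cdk18 and Ccnb3 before 24 h, have little signal over background.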
